A study of Homo sapiens with 24 samples.

Results

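The genes of haem synthesis were followed here across JAK inhibitor treatments of HEL cells, human erythroleukaemia cells whose JAK2 is mutated and constantly active. The 9 genes are ALAS1, ALAS2, ALAD, UROS, UROD, CPOX, PPOX, FECH and SLC25A38. They were picked by gene symbol from a table of 34213 genes, each symbol matched 1 gene, and all 9 passed the filter on low counts that left 16076 genes for testing. The cells received ruxolitinib, fedratinib, momelotinib, pacritinib or itacitinib at 500 nM, or DMSO (the solvent alone), for 48 h or 4 h, which makes 12 groups of 2 libraries of total RNA. Every group, DMSO included, is the same JAK2-mutant line, so there is no cell with unmutated JAK2 in the comparisons. The treatments were in duplicate, the labels do not say whether duplicates were separate cultures, and every p-value here rests on the spread between such duplicates.

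Haem is built from glycine and succinyl-CoA along a chain of enzymes that starts and ends in the mitochondrion. SLC25A38 carries glycine into the mitochondrion, and 5-aminolevulinate synthase makes the first committed intermediate in the rate-limiting step. This synthase comes in a housekeeping form, ALAS1, whose gene haem represses, and an erythroid form, ALAS2, whose messenger RNA is held back by iron regulatory proteins when iron is short and whose gene is a classical GATA1 target. In the cytosol ALAD joins 5-aminolevulinate into porphobilinogen, UROS closes the ring as uroporphyrinogen III, and UROD trims its side chains. In the mitochondrion CPOX then oxidises side chains of the ring, PPOX oxidises the ring itself, and FECH inserts the iron. The step between ALAD and UROS is not analysed here.

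On GRCh38, with GENCODE 29 gene bounds, ALAS1 (ENSG00000023330) lies at chr3:52198086-52214327 on the plus strand, and ALAS2 (ENSG00000158578) at chrX:55009055-55031064 on the minus strand. ALAD (ENSG00000148218) lies at chr9:113386317-113401333, UROS (ENSG00000188690) at chr10:125784980-125823285, CPOX (ENSG00000080819) at chr3:98579446-98593723 and FECH (ENSG00000066926) at chr18:57548283-57586772, all on the minus strand. UROD (ENSG00000126088) lies at chr1:45012147-45015575, PPOX (ENSG00000143224) at chr1:161166410-161178013 and SLC25A38 (ENSG00000144659) at chr3:39383324-39397351, on the plus strand. The counts are of whole genes, so exons and isoforms were not told apart.

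The libraries held 32153866 to 56618281 counts. Of the erythroid markers, 7 of 8 reached 1 CPM (counts scaled to library size) in at least 1 library, among them GATA1 and KLF1, while SLC4A1 stayed at or below 0.664 CPM. Of the megakaryocyte markers, 4 of 6 reached it, led by ITGA2B, and GP1BB was at 0 in every library. The summed markers of T cells, macrophages, epithelium and fibroblasts stayed at or below 1.67 CPM, and those of B cells, nearly all CD79A, lay between 3.26 and 7.84 CPM. The JAK-STAT target CISH differed by −0.33 ± 0.07 log2 units between ruxolitinib and DMSO at 48 h and by −1.76 ± 0.08 at 4 h (standard error, edgeR adjusted p = 0.000564 and 2.33e-22), and PIM1, another, by −0.69 ± 0.05 and −1.69 ± 0.05 (adjusted p = 3.42e-15 and 9.21e-28). At 4 h both were also lower with momelotinib (CISH −0.34, PIM1 −0.35) and pacritinib (−0.57 and −0.25), and neither was called with fedratinib (−0.19 and −0.16) or itacitinib (0.13 and −0.05). At 48 h both were higher with pacritinib (0.43 and 0.15, adjusted p = 1.48e-05 and 0.0238), and neither was called with fedratinib, momelotinib or itacitinib. The same dose thus came with unequal changes of these targets.

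The stretches just upstream of ALAS1, ALAS2 and CPOX are shown because the 2 synthase genes moved in opposite directions and because CPOX held the most GATA matches of the 8 members that have a RefSeq start-site window. Windows run from 250 bases before to 50 bases after each start site on GRCh38.p14, are credited to RefSeq, and are printed 5′ to 3′ on the gene's strand without the bases that lie in annotated exons. Capitals mark matches, on either strand, to the motif of GATA transcription factors, AGATAA. They also mark the motif bound by factors of the KLF and SP families, which reads CACCC. The motif of the erythroid factor NF-E2 and of AP-1, TGACTCA, was searched in the same way. So was the motif of STAT proteins, TTCNNNGAA. No match in these stretches overlapped another.
ALAS2, chrX:55031065-55031227, minus strand: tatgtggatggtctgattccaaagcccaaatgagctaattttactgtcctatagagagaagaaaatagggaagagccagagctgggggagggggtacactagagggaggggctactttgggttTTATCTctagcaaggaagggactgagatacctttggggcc
ALAS1, chr3:52197833-52198082, plus strand: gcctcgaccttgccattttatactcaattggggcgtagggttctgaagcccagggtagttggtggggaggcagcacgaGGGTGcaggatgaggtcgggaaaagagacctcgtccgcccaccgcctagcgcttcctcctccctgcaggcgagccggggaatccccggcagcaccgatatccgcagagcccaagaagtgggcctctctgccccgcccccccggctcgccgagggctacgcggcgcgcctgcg
CPOX, chr3:98593724-98593861, minus strand: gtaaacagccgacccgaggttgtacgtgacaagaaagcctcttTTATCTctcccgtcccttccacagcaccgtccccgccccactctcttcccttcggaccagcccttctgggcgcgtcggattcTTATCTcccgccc

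In the ALAS2 window a GATA match began 127 bases before the start site, and in the CPOX window 2 began 207 and 125 bases before it. A further GATA match lay 63 bases before the start in 1 of the 2 PPOX windows, and a TGACTCA match 47 bases before the start of ALAS2, outside the printed stretch. No member window held TTCNNNGAA. Over 35116 windows of the same length, 10.3% held the GATA motif, 59.9% that of KLF and SP factors, 4.95% that of NF-E2 and 7.66% that of STAT proteins. A match is a run of letters and not a measured binding site, and a window without one says only that those letters are not in it.

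Per length of the principal transcript, UROD was the most abundant member by far, with a median level of 451 RPKM, the counts per kilobase scaled to library size, over the 24 libraries. CPOX followed at 46.4 RPKM, UROS at 42.2, ALAS1 at 28.4, ALAS2 at 19.4, FECH at 18.8, SLC25A38 at 18.3, ALAD at 14.5 and PPOX at 13.4 RPKM. UROD stood apart, with 412 RPKM in its lowest library, against 65.4 RPKM in the highest library of CPOX, and every library of UROS was above every library of ALAS1 (37.3 RPKM at the lowest, against 34.6 at the highest). All other neighbours in this order overlapped over the libraries. The place of UROS rests on the length used: over all its merged exons its median was 6.06 RPKM. The rarest member, PPOX, still had 730 to 1278 counts per library.

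Across groups ALAS2 ranged most widely, 3.76-fold between its highest and lowest group means in CPM, followed by ALAD at 2.56-fold and ALAS1 at 1.74-fold. UROS at 1.27-fold and SLC25A38 at 1.17-fold ranged least. Ruxolitinib at 48 h gave the highest group mean of ALAS2, ALAD, UROD, CPOX, PPOX and FECH and the lowest of ALAS1.

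**Figure D1:**
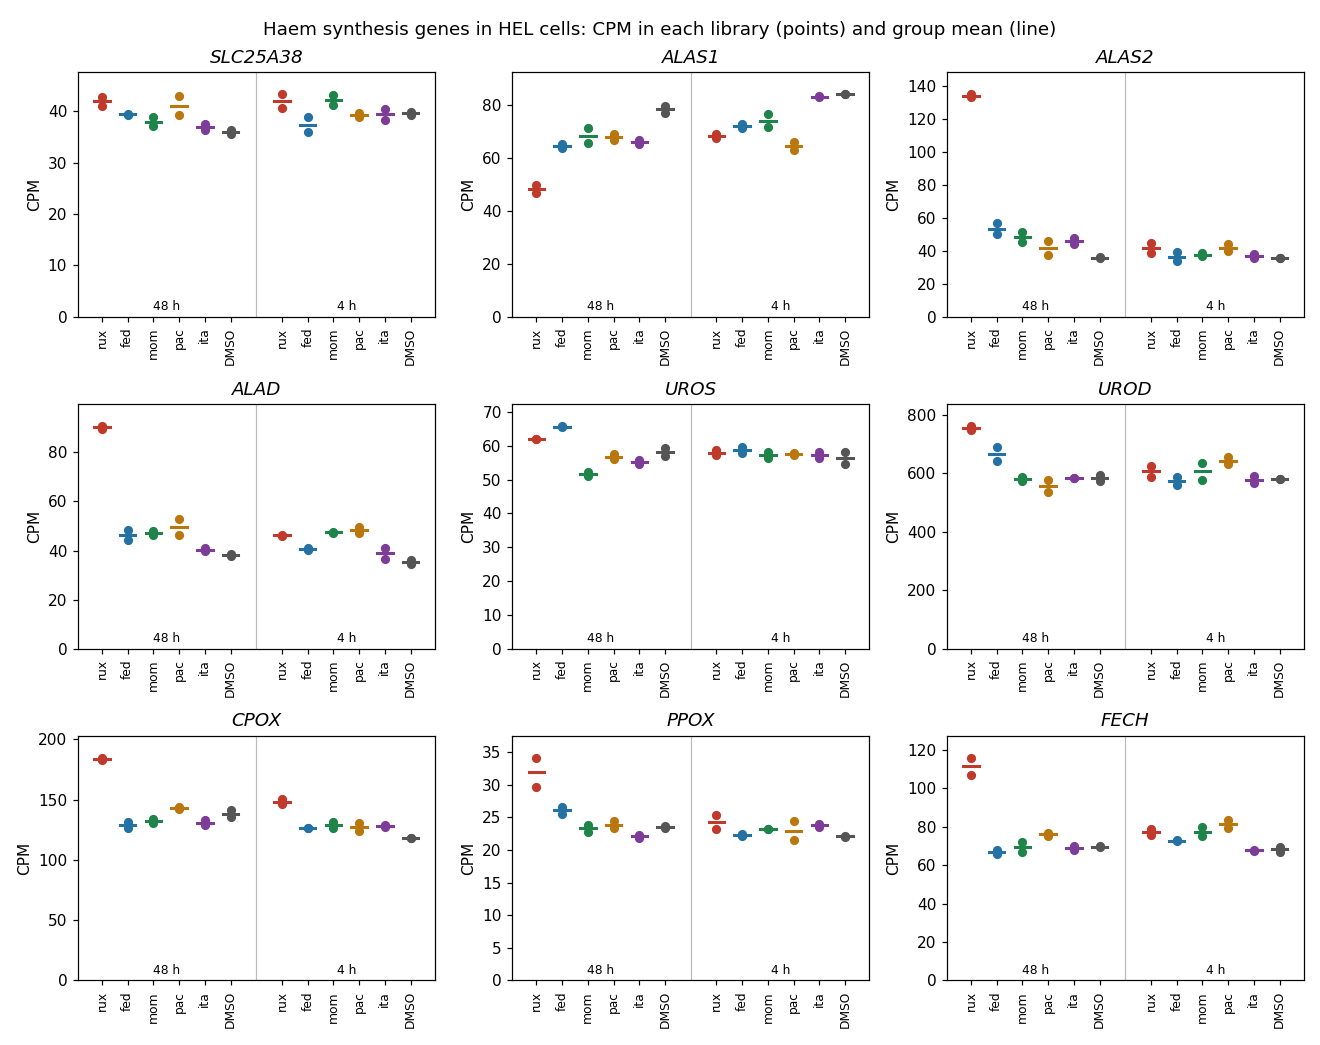
CPM of the 9 haem synthesis genes (y axis, from 0) in each of the 24 libraries (points) by treatment and time (x axis: rux ruxolitinib, fed fedratinib, mom momelotinib, pac pacritinib, ita itacitinib), with lines at the group means of 2 libraries. ALAS2 stood at 133 and 135 CPM with ruxolitinib at 48 h and at or below 56.7 CPM in every other library, while ALAS1 was lowest there, at 46.9 and 49.8 CPM.

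After 48 h of ruxolitinib the erythroid synthase ALAS2 rose 3.74-fold, and the housekeeping synthase ALAS1 fell to 0.617 of its DMSO level. ALAS2 had 133 and 135 CPM in ruxolitinib cells, against 36.3 and 35.4 CPM in DMSO cells. ALAS1 had 46.9 and 49.8 CPM in ruxolitinib cells, against 79.6 and 77.0 CPM in DMSO cells. For both genes the ruxolitinib libraries stood clear of all other libraries, and the share of all genes with such a separation was not computed. The log2 fold change was 1.90 ± 0.08 for ALAS2 (adjusted p = 3.57e-17) and −0.70 ± 0.06 for ALAS1 (adjusted p = 1.66e-14; edgeR's quasi-likelihood test with Benjamini-Hochberg adjustment over all genes tested, threshold 0.05, here and below; ± is the standard error of a log2 value). Only 84 of the 16076 genes, or 0.523%, had a larger positive log2 fold change than ALAS2 in this comparison. In bulk RNA, more cells of an erythroid kind and more RNA per cell cannot be told apart.

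Set side by side per length, the synthase pair changed places. The ratio of ALAS2 to ALAS1 in RPKM was 3.41 and 3.25 in ruxolitinib cells at 48 h, against 0.547 and 0.55 in DMSO cells at 48 h. It was 1.07 and 0.919 with fedratinib at 48 h, and its group means were 0.842 for momelotinib, 0.74 for pacritinib and 0.833 for itacitinib. At 4 h the group means ran between 0.531 with itacitinib and 0.778 with pacritinib, against 0.508 in DMSO cells. The 2 forms together came to 85.0 and 87.0 RPKM in ruxolitinib cells at 48 h, against 50.7 and 49.1 RPKM in DMSO cells at 48 h, and the other group means of this sum lay between 47.2 and 52.8 RPKM.

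**Figure D2:**
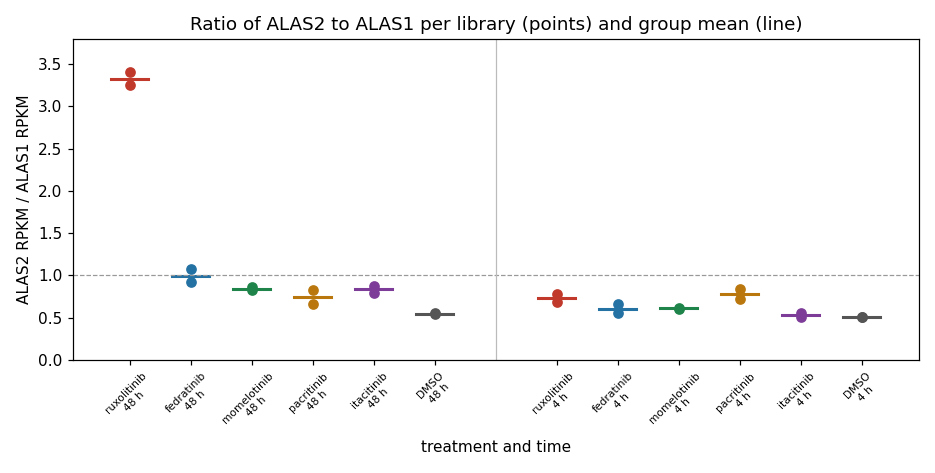
Ratio of ALAS2 to ALAS1 level in RPKM (y axis, from 0) in each library (points) with group means of 2 libraries (lines), by treatment and time (x axis), and a dashed line at equal levels. The ratio was 3.41 and 3.25 with ruxolitinib at 48 h, and 1.07 or lower in every other library.

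Of the 9 members, 7 rose and 1 fell with ruxolitinib at 48 h, where 12.5% of all genes tested rose and 13.4% fell. Next in size to ALAS2 was ALAD, the porphobilinogen synthase, with 90.8 and 89.7 CPM in ruxolitinib cells, against 37.6 and 38.5 CPM in DMSO cells. Its log2 fold change was 1.25 ± 0.06, or 2.37-fold (adjusted p = 5.19e-21). FECH, which closes the pathway, had 107 and 116 CPM in ruxolitinib cells, against 69.3 and 70.1 CPM in DMSO cells, a log2 fold change of 0.68 ± 0.05 (adjusted p = 1.38e-14). In absolute size the log2 fold changes of ALAS2, ALAD, ALAS1 and FECH exceeded those of UROS, UROD, CPOX, PPOX and SLC25A38.

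PPOX, CPOX and UROD rose by less. The libraries of all 9 members, UROS included, stood clear of those of DMSO here, a separation that 2 against 2 libraries reach easily. Its share over all genes was not computed. PPOX had 29.7 and 34.2 CPM in ruxolitinib cells, against 23.4 and 23.7 CPM in DMSO cells (log2 fold change 0.44 ± 0.08, adjusted p = 2.09e-05). CPOX had 183 and 185 CPM in ruxolitinib cells, against 141 and 135 CPM in DMSO cells (log2 fold change 0.41 ± 0.04, adjusted p = 2.77e-10). UROD, already the most abundant, had 761 and 747 CPM in ruxolitinib cells, against 595 and 573 CPM in DMSO cells (log2 fold change 0.37 ± 0.05, adjusted p = 7.06e-09). UROS had 62.1 and 62.1 CPM in ruxolitinib cells, against 57.1 and 59.4 CPM in DMSO cells, and did not pass the test (log2 fold change 0.09, 95% interval −0.02 to 0.20, adjusted p = 0.235). The glycine carrier SLC25A38 had 42.9 and 41.0 CPM in ruxolitinib cells, against 36.4 and 35.5 CPM in DMSO cells (log2 fold change 0.22 ± 0.07, adjusted p = 0.00848). The call of SLC25A38 was lost without ruxolitinib replicate 1 (log2 fold change 0.19) and without DMSO replicate 2 (0.20), while the other 7 calls stood without each of the 4 libraries in turn.

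The summed erythroid markers were also higher: they were at 4065 and 4056 CPM in ruxolitinib cells at 48 h, against 2536 and 2531 CPM in DMSO cells at 48 h. Momelotinib cells at 48 h had 2544 and 2495 CPM of them, pacritinib cells 2513 and 2516, and itacitinib cells 2822 and 2649. The summed megakaryocyte markers were at 849.7 and 862 CPM in ruxolitinib cells, against 839.7 and 843 CPM in DMSO cells. Here and below, most of the erythroid sum was HBG2 (1720 to 2960 CPM over all libraries). Most of the megakaryocyte sum was ITGA2B (712 to 926 CPM). The sums thus say little of rarer markers such as GP6 (5.59 to 39.8 CPM) and ITGB3 (15.5 to 38.8 CPM). Against DMSO at 48 h, ruxolitinib raised HBG2 by 0.72, HBG1 by 0.69, KLF1 by 0.52 and GATA1 by 0.14 log2 units. The share of counts on mitochondrial messenger RNAs was 2.81% and 2.71% in ruxolitinib cells, against 2.12% and 2.20% in DMSO cells, and the share on 7SL RNA was 3.92% and 3.99%, against 3.05% and 3.36%. These shares were as high in other groups: at 48 h mitochondrial messenger RNAs took 3.31% and 3.17% in pacritinib cells and 2.80% and 3.27% in itacitinib cells, and 7SL RNA took 4.52% and 4.76% in pacritinib cells, while at 4 h 7SL RNA took 3.95% and 3.84% in pacritinib cells, against 2.42% and 2.52% in DMSO cells. The part of each in the haem genes' changes was not tested. KLF1 and GATA1 stand both among these markers and among the regulators below, and HBG1 and HBG2 among the globins.

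**Figure D3:**
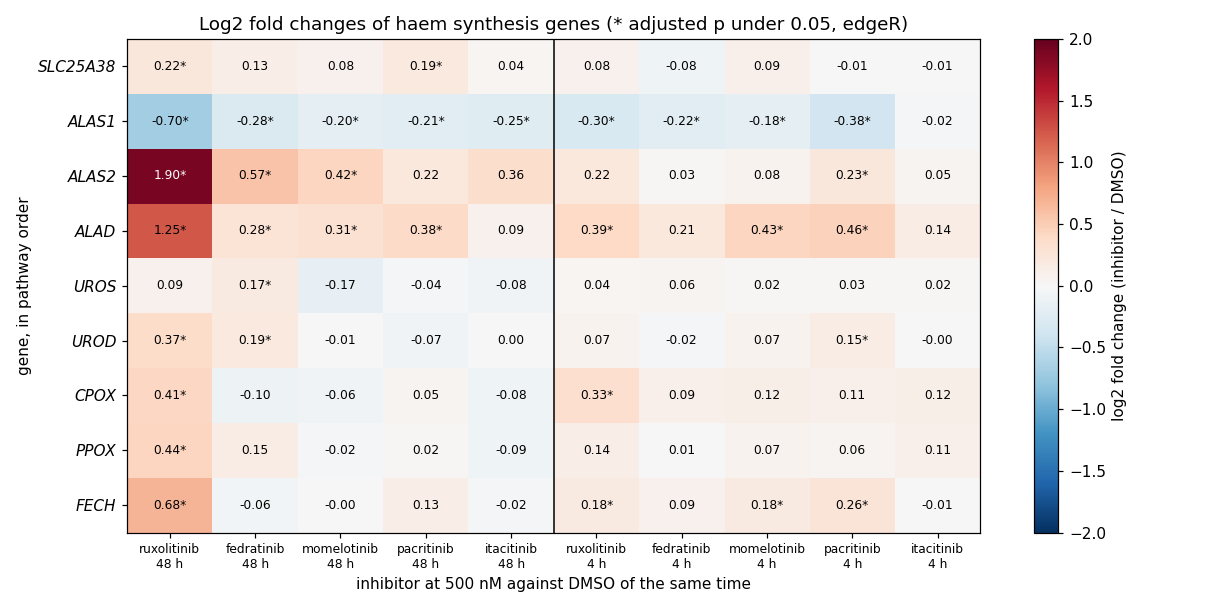
Log2 fold change of each haem synthesis gene (rows, in pathway order) for each inhibitor at 500 nM against DMSO of the same time (columns, 48 h left of 4 h), with the value in each cell, red for higher and blue for lower with the inhibitor, and * for an edgeR adjusted p under 0.05. The ALAS1 row is below 0 in all 10 columns and called in 9, and the ruxolitinib 48 h column holds the largest change of every row but that of UROS.

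The other inhibitors each moved fewer of these genes at 48 h. ALAS1 fell with each of them. It had 63.7 and 65.1 CPM in fedratinib cells, 71.1 and 65.7 in momelotinib cells, 66.6 and 69.0 in pacritinib cells and 66.8 and 65.2 in itacitinib cells, against 79.6 and 77.0 CPM in DMSO cells. All 8 inhibitor libraries were below both DMSO libraries, and the share of all genes with such a separation was not computed. The log2 fold changes were −0.28 (adjusted p = 0.00036), −0.20 (0.0355), −0.21 (0.0042) and −0.25 (0.0136), in the same order, each with a standard error of 0.05. These comparisons share the 2 DMSO libraries.

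Fedratinib came next to ruxolitinib, with 4 members higher and 1 lower at 48 h (3.83% and 4.25% of all genes). ALAS2 had 56.7 and 49.9 CPM in fedratinib cells, against 36.3 and 35.4 CPM in DMSO cells, a log2 fold change of 0.57 ± 0.09 (adjusted p = 5.29e-05). ALAD rose by 0.28 ± 0.07 (adjusted p = 0.00421), UROD by 0.19 ± 0.05 (0.00524) and UROS by 0.17 ± 0.05 log2 units (0.0385). UROS had 65.9 and 65.5 CPM with fedratinib, its highest group, where ruxolitinib cells had 62.1 and 62.1 CPM. The summed erythroid markers were at 3159 and 2741 CPM in fedratinib cells, against 2536 and 2531 CPM in DMSO cells. The summed megakaryocyte markers were at 1007 and 994.7 CPM in fedratinib cells, against 839.7 and 843 CPM in DMSO cells, and 7SL RNA took 4.67% and 4.42% of counts, against 3.05% and 3.36%. The part of each in these changes was not tested. The ALAS1 and ALAS2 calls stood without each of the 4 libraries. That of UROS was lost without any 1 of them (log2 fold change 0.14 to 0.20), that of ALAD without fedratinib replicate 1 (0.21) or DMSO replicate 1 (0.26), and that of UROD without fedratinib replicate 1 (0.13) or DMSO replicate 2 (0.15).

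Momelotinib at 48 h raised ALAS2 and ALAD and lowered ALAS1, so 2 members were higher and 1 lower (1.23% and 1.28% of all genes). ALAS2 had 51.1 and 45.1 CPM in momelotinib cells, against 36.3 and 35.4 CPM in DMSO cells (log2 fold change 0.42 ± 0.09, adjusted p = 0.00655). ALAD had 47.9 and 46.5 CPM in momelotinib cells, against 37.6 and 38.5 CPM in DMSO cells (0.31 ± 0.07, adjusted p = 0.00479). UROS had 52.4 and 51.1 CPM in momelotinib cells, against 57.1 and 59.4 CPM in DMSO cells, and did not pass (−0.17, adjusted p = 0.0855). The ALAS1 call was lost without any 1 of the 4 libraries (log2 fold change −0.25 to −0.14), and those of ALAS2 and ALAD without momelotinib replicate 1 (0.33 and 0.29), DMSO replicate 1 (0.44 and 0.29) or DMSO replicate 2 (0.40 and 0.32).

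Pacritinib at 48 h raised ALAD and SLC25A38 and lowered ALAS1, again 2 higher and 1 lower, where 8.34% and 10.3% of all genes were called. ALAD had 52.9 and 46.2 CPM in pacritinib cells, against 37.6 and 38.5 CPM in DMSO cells (log2 fold change 0.38 ± 0.07, adjusted p = 2.76e-05). SLC25A38 had 39.2 and 43.0 CPM in pacritinib cells, against 36.4 and 35.5 CPM in DMSO cells (0.19 ± 0.07, adjusted p = 0.0321). ALAS2 had 45.8 and 37.7 CPM in pacritinib cells and did not pass (log2 fold change 0.22, 95% interval 0.04 to 0.40, adjusted p = 0.0874), but it passed without pacritinib replicate 2 (0.34). The SLC25A38 call was lost without pacritinib replicate 2 (0.11), DMSO replicate 1 (0.20) or DMSO replicate 2 (0.17). That of ALAS1 was lost without pacritinib replicate 1 (−0.19) or DMSO replicate 1 (−0.19), and that of ALAD was kept throughout.

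Itacitinib at 48 h gave 1 member lower, ALAS1, and 0 higher, where 0.454% of all genes were lower and 0.0871% higher. ALAS2 had 44.2 and 47.4 CPM in itacitinib cells, against 36.3 and 35.4 CPM in DMSO cells, and lay at the threshold: its log2 fold change was 0.36 ± 0.09 with an adjusted p of 0.0504, and 7 of 8 other settings called it, DESeq2 among them. At an unadjusted p under 0.05, 2 members passed in either direction, and DESeq2 called 2. The ALAS1 call was lost without itacitinib replicate 2 (log2 fold change −0.23), DMSO replicate 1 (−0.22) or DMSO replicate 2 (−0.27).

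At 4 h ALAS1 was the member called most often, followed by ALAD and FECH, each called with ruxolitinib, momelotinib and pacritinib. With ruxolitinib the log2 fold changes of all called members were smaller in size at 4 h than at 48 h. Those of ALAS1, ALAD and FECH with pacritinib, and of ALAD and FECH with momelotinib, were larger in size at 4 h. Tests of the differences between times are given below, and none of these pacritinib and momelotinib differences passed. ALAS1 had 68.9 and 67.7 CPM with ruxolitinib, 71.4 and 72.8 in fedratinib cells, 76.5 and 71.7 in momelotinib cells, 66.1 and 63.0 in pacritinib cells and 83.3 and 82.8 in itacitinib cells, against 84.1 and 84.0 CPM in DMSO cells. It fell with the first 4 of these, with log2 fold changes of −0.30, −0.22, −0.18 and −0.38 (adjusted p = 6.87e-05, 0.0168, 0.026 and 1.97e-07). With itacitinib the log2 fold change was −0.02 (95% interval −0.12 to 0.09). ALAD had 46.5 and 45.8 CPM with ruxolitinib, 40.9 and 40.2 in fedratinib cells, 47.6 and 47.3 in momelotinib cells, 47.3 and 49.6 in pacritinib cells and 36.5 and 41.2 in itacitinib cells, against 36.1 and 34.3 CPM in DMSO cells. It rose with ruxolitinib (log2 fold change 0.39, adjusted p = 2.68e-05), momelotinib (0.43, 6.63e-06) and pacritinib (0.46, 2.52e-07), each with a standard error of 0.07, and these 3 calls stood without each library in turn.

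Ruxolitinib at 4 h gave 3 members higher and 1 lower (3.48% and 5.24% of all genes). Beside ALAD, CPOX rose, with 150 and 146 CPM in ruxolitinib cells, against 118 and 118 CPM in DMSO cells (log2 fold change 0.33 ± 0.05, adjusted p = 5.09e-07). FECH had 78.6 and 75.8 CPM in ruxolitinib cells, against 67.0 and 69.3 CPM in DMSO cells (0.18 ± 0.05, adjusted p = 0.0276), a call lost without any 1 of the 4 libraries (0.15 to 0.21) and in a fit of the 4 h libraries alone (adjusted p = 0.0525). ALAS2 had 44.5 and 38.5 CPM in ruxolitinib cells, against 35.5 and 35.7 CPM in DMSO cells, and did not pass (0.22, adjusted p = 0.144), though it passed without ruxolitinib replicate 2 (0.33).

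Pacritinib at 4 h gave the most member calls of that time, 4 higher and 1 lower, and it also moved the most genes, 13.3% higher and 17.5% lower. The summed erythroid markers were at 3172 and 3069 CPM in pacritinib cells, against 2717 and 2650 CPM in DMSO cells, and their part was not tested. FECH had 79.2 and 83.8 CPM in pacritinib cells, against 67.0 and 69.3 CPM in DMSO cells (log2 fold change 0.26 ± 0.05, adjusted p = 0.00019). ALAS2 had 39.6 and 44.1 CPM in pacritinib cells, against 35.5 and 35.7 CPM in DMSO cells (0.23 ± 0.09, adjusted p = 0.042). UROD had 653 and 630 CPM in pacritinib cells, against 579 and 580 CPM in DMSO cells (0.15 ± 0.05, adjusted p = 0.0105). The ALAS2 call was lost without pacritinib replicate 2 (0.16), DMSO replicate 1 (0.22) or DMSO replicate 2 (0.24), and that of UROD without pacritinib replicate 1 (0.12), DMSO replicate 1 (0.14) or DMSO replicate 2 (0.15). CPOX, at 0.11 log2 units, missed the threshold here (adjusted p = 0.0681) and passed it with DESeq2 and 3 other settings.

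Momelotinib at 4 h gave 2 members higher and 1 lower (2.28% and 4.02% of all genes), the second riser being FECH with 75.1 and 79.8 CPM in momelotinib cells, against 67.0 and 69.3 CPM in DMSO cells (log2 fold change 0.18 ± 0.05, adjusted p = 0.0267). The FECH call was lost without momelotinib replicate 2 (0.14), DMSO replicate 1 (0.15) or DMSO replicate 2 (0.21), and that of ALAS1 without momelotinib replicate 2 (−0.14), DMSO replicate 1 (−0.19) or DMSO replicate 2 (−0.18). Fedratinib at 4 h gave 1 member lower, ALAS1, and 0 higher (1.23% and 0.628% of all genes), with 3 members at an unadjusted p under 0.05 and 1 called by DESeq2. That call was lost without any 1 of the 4 libraries (log2 fold change −0.24 to −0.21). Itacitinib at 4 h gave 0 of 9 members by edgeR, where 0.709% of all genes were higher and 0.124% lower. Of its members 2 reached an unadjusted p under 0.05, and DESeq2 called 0.

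Over the 10 comparisons with DMSO, ALAS1 was called lower in 9 and ALAD higher in 7. ALAS2 and FECH were each called higher in 4, UROD in 3, CPOX and SLC25A38 in 2, and UROS and PPOX in 1. By edgeR no member other than ALAS1 was called lower in any of them, while DESeq2 called UROS lower with momelotinib at 48 h (adjusted p = 0.0389). The 5 comparisons of each time share their DMSO libraries, so these counts are not independent.

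Between DMSO cells at 48 h and DMSO cells at 4 h, 1 member differed. CPOX had 141 and 135 CPM in DMSO cells at 48 h, against 118 and 118 CPM in DMSO cells at 4 h, a log2 fold change of 0.23 ± 0.05 (adjusted p = 0.000625). The other 8 did not pass (adjusted p 0.201 to 0.97), and 8.67% of all genes did.

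For ruxolitinib the change against DMSO differed between 48 h and 4 h for 5 members, where 9.08% of all genes did. The difference, the log2 fold change at 48 h minus that at 4 h, was 1.69 ± 0.12 for ALAS2 (adjusted p = 2.03e-11), 0.85 ± 0.09 for ALAD (1.34e-09), 0.50 ± 0.08 for FECH (4.01e-06), 0.30 ± 0.06 for UROD (0.000765) and −0.40 ± 0.08 for ALAS1 (0.000223). All 5 held without each of the 8 libraries in turn. For CPOX the difference was 0.08 (95% interval −0.05 to 0.21), with log2 fold changes of 0.41 at 48 h and 0.33 at 4 h. PPOX, at 0.30, did not pass (adjusted p = 0.0901) but did without ruxolitinib 48 h replicate 1 (0.40).

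**Figure D4:**
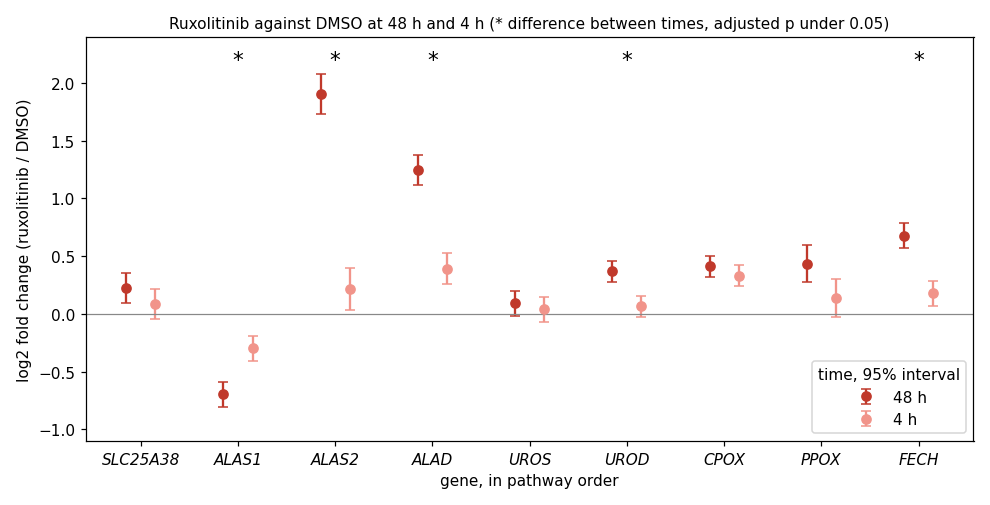
Log2 fold change of each haem synthesis gene (x axis, in pathway order) for ruxolitinib against DMSO (y axis) at 48 h and at 4 h, with 95% intervals as bars and * where the difference between times passed the test. ALAS2 was at 1.90 at 48 h and 0.22 at 4 h, while CPOX was at 0.41 and 0.33.

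With the other inhibitors the difference between times passed for 1 member or 0. With fedratinib the difference passed for ALAS2, at 0.54 ± 0.12 (adjusted p = 0.00875; 4.26% of all genes), and it was lost without fedratinib 48 h replicate 1 (0.45), DMSO 48 h replicate 2 (0.52) or fedratinib 4 h replicate 2 (0.44). UROD, at 0.21, missed the threshold with fedratinib (adjusted p = 0.0531) and passed it without fedratinib 48 h replicate 2 (0.25) and without fedratinib 4 h replicate 1 (0.24). With pacritinib UROD was at −0.07 against DMSO at 48 h and at 0.15 at 4 h, and the difference of −0.22 ± 0.06 passed (adjusted p = 0.0123; 18.4% of all genes). It was lost without pacritinib 48 h replicate 2 (−0.17) or DMSO 48 h replicate 1 (−0.20). With momelotinib 0 members passed by edgeR (2.69% of all genes), 4 had an unadjusted p under 0.05 and DESeq2 called 1. With itacitinib 0 members and 0% of all genes passed by edgeR, 3 members had an unadjusted p under 0.05, and DESeq2 called 0 members and 4 genes in all.

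Ruxolitinib was also set against each other inhibitor at the same dose and time, in 8 comparisons. At 48 h, 7 members differed from fedratinib, 8 from momelotinib, 7 from pacritinib and 9 from itacitinib, where 21.1%, 21.2%, 24.8% and 22.2% of all genes did. ALAS2 was higher with ruxolitinib by 1.33 ± 0.08 log2 units against fedratinib and 1.69 ± 0.08 against pacritinib, with the other comparisons between these. The ALAD difference lay between 0.87 against pacritinib and 1.16 against itacitinib, and that of FECH between 0.55 against pacritinib and 0.74 against fedratinib. The log2 differences of ALAS1, lower with ruxolitinib, lay between −0.50 against momelotinib and −0.41 against fedratinib. The ruxolitinib libraries of ALAS1, ALAS2, ALAD, FECH, UROD, CPOX and PPOX stood outside the range of all other 48 h libraries. Those of UROS and SLC25A38 did not. How many of all genes tested showed such a separation was not computed. Of these compounds itacitinib shares the pyrrolopyrimidine core with ruxolitinib, and it was the one from which all 9 members differed.

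Among the smaller differences at 48 h, UROS with ruxolitinib lay 0.26 ± 0.06 log2 units above momelotinib (adjusted p = 0.000245), and −0.08 from fedratinib (95% interval −0.19 to 0.03, adjusted p = 0.342). SLC25A38 passed only against itacitinib (0.18 ± 0.06, adjusted p = 0.0302), and UROS passed there too (0.17 ± 0.05, adjusted p = 0.0179). Both were lost without any 1 of the 4 libraries (0.15 to 0.21 for SLC25A38 and 0.15 to 0.18 for UROS) and without the low-count filter. Against fedratinib, PPOX (0.29) was lost without ruxolitinib replicate 2 (0.19) or fedratinib replicate 2 (0.26), and UROD (0.18) without fedratinib replicate 2 (0.13).

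**Figure D5:**
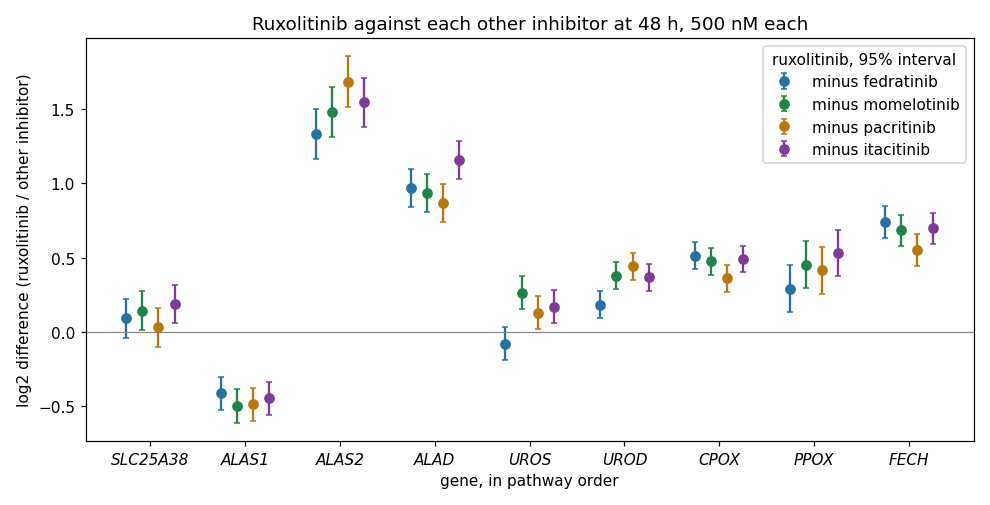
Log2 difference between ruxolitinib and each other inhibitor at 48 h (y axis, 500 nM each) for each haem synthesis gene (x axis, in pathway order), with 95% intervals as bars. ALAS2 lay between 1.33 and 1.69 and ALAS1 between −0.50 and −0.41.

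At 4 h CPOX set ruxolitinib apart. CPOX had 150 and 146 CPM with ruxolitinib, 126 and 126 in fedratinib cells, 131 and 126 in momelotinib cells, 124 and 130 in pacritinib cells and 129 and 127 in itacitinib cells. The log2 difference from these 4, in that order, was 0.23, 0.20, 0.22 and 0.21, each with a standard error of 0.05 (adjusted p = 0.000504, 0.00917, 0.000166 and 0.00145). Of the members, CPOX was the 1 called against fedratinib, momelotinib and pacritinib, where 3.87%, 0.753% and 25.9% of all genes were called. Against itacitinib 4 were called (6.19% of all genes), the others being ALAS1 at −0.28, ALAD at 0.25 and FECH at 0.19. The CPOX call against momelotinib was lost without ruxolitinib replicate 1 (0.19) or 2 (0.22) or momelotinib replicate 2 (0.18). Against itacitinib, ALAD was lost without ruxolitinib replicate 1 (0.24) or itacitinib replicate 1 (0.17), and FECH also without itacitinib replicate 2 (0.19; 0.16 and 0.19 without the first pair).

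Among themselves the members' profiles over the 12 groups fell apart mainly along ALAS2, ALAD and ALAS1. Profiles were taken as group mean log2 CPM, each centred on its own mean, and compared by their root-mean-square difference. The closest pair was UROD and PPOX, at 0.0704, and the farthest was ALAS1 and ALAS2, at 0.692. This measure is not scaled to a gene's own spread, so genes that vary little come out close. The root-mean-square size of the centred profile itself was 0.504 for ALAS2 and 0.202 for ALAS1. Candidates were the 9435 other tested genes whose log2 CPM averaged 3 or more, of which the nearest to ALAS2 were PKLR (0.113), the red cell pyruvate kinase, BLVRB (0.122), a biliverdin reductase, and SHISA7 (0.176). The nearest to ALAS1 were FAM91A1 (0.0768), ACVR1B (0.0807), an activin receptor, and ANKRD35 (0.0842).

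Genes around the pathway were read from lists chosen with earlier results of these data known, and each median is a log2 fold change against DMSO at 48 h with ruxolitinib, where all genes tested had a median of 0.007. Of all genes tested, 12.5% rose and 13.4% fell in that comparison. Of 14 genes for mitochondrial transport and cofactors, 4 rose and 1 fell (median 0.074). The risers were FAM210B (1.26), a mitochondrial protein needed for erythroid haem synthesis, TMEM14C (0.87), a porphyrinogen transporter, SLC25A37 (0.77), the mitoferrin that brings iron to FECH, and ABCB10 (0.74), its partner in the inner membrane. The gene that fell was LONP1 (−0.21), a mitochondrial protease that degrades ALAS1, chosen after its value was seen. Among the genes for iron-sulphur clusters, whose median was −0.048, IBA57 (0.28) rose and HSPA9 (−0.23) fell.

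Of 9 genes for haem export, breakdown and sensing, 4 rose and 1 fell with ruxolitinib at 48 h (median 0.125), beside 12.5% and 13.4% of all genes. BLVRB rose by 1.73, the haem transporter SLC48A1 by 0.61, the haem-regulated kinase EIF2AK1 by 0.27 and the haem-sensing repressor BACH1 by 0.19 log2 units, the last named after its value was seen. HMOX1, the haem oxygenase that BACH1 represses, fell by 0.97 ± 0.13 (adjusted p = 1.6e-07). Of 11 tested regulators of the 2 synthase genes, 7 rose and 1 fell (median 0.178), among them LMO2 (0.59), ZFPM1 (0.55), KLF1 (0.52) and LDB1 (0.43), which are GATA1 partners or erythroid factors. GATA1 itself rose by 0.14 ± 0.05 (adjusted p = 0.0158). The gene that fell was NR1D1 (−0.26), a haem-binding receptor, and both were named after their values were seen. Of 10 tested globins 9 rose (median 0.98), led by HBM (2.81), HBZ (2.37), HBA2 (2.26) and HBA1 (1.82), of which HBA1 and HBA2 are near-identical copies that counting can mix.

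With the other inhibitors at 48 h each list had fewer calls than with ruxolitinib, and differences between inhibitors were not tested for the lists. Fedratinib raised 7 of 10 globins, led by HBZ (1.39), 4 of 14 transport genes, led by SLC25A39 (0.24), and BLVRB (0.59), and lowered HMOX1 (−0.65). Over all genes, 3.83% rose and 4.25% fell with fedratinib. With pacritinib ABCB10 (0.28), SLC25A39 (0.28), BLVRB (0.44) and TAL1 (0.21) rose, and HMOX1 (−0.83), ZFPM1 (−0.22), ACO1 (−0.24) and ISCA1 (−0.24) fell. ZFPM1 thus fell with pacritinib and rose with ruxolitinib, and SLC25A39 rose with fedratinib and pacritinib and was at −0.03 with ruxolitinib. Of the 10 globins 2 rose and 2 fell with pacritinib, where 8.34% of all genes rose and 10.3% fell. With momelotinib, LMO2 (−0.22) fell and HBQ1 (0.45) rose, and with itacitinib HBZ (0.73) rose, with no other call in these 5 lists for either. Over all genes, 1.23% rose and 1.28% fell with momelotinib, and 0.0871% and 0.454% with itacitinib. At 4 h SLC25A37 rose with ruxolitinib (0.34), momelotinib (0.26), pacritinib (0.33) and itacitinib (0.18). NR1D1 fell with ruxolitinib (−0.45), fedratinib (−0.38), momelotinib (−0.37) and pacritinib (−0.82).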

How the data were processed

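RNA-seq of HEL cells was analysed from the deposited table of raw counts per gene. The authors used bcl2fastq, STAR 2.5.1a, GRCh38 and edgeR, per the submitters' processing notes; which tool counted reads, on which annotation and strand, is not given in the sources used here. Of 34343 rows, 130 repeated an Ensembl ID with identical values and were dropped, leaving 34213 genes. Counts were filtered (filterByExpr), scaled (TMM) and tested with edgeR 4.0.16 in R 4.3.3 (robust quasi-likelihood F test, 1 mean per group over 24 libraries, 12 residual degrees of freedom, Benjamini-Hochberg over 16076 genes, threshold 0.05) in 24 comparisons. CPM use the TMM-scaled library size, and RPKM the GENCODE 29 principal transcript. Intervals are 95%. DESeq2 1.42.0 and the other settings are in the closing section. The members, lists and tests were chosen with earlier results of these data known. Named genes are all 9 members, CISH and PIM1, the 3 nearest profiles to ALAS1 and ALAS2, and up to 4 called genes of each list with the largest change. Chi-square values per degree of freedom between duplicates were 3.42 to 14.7, so within each group the duplicates were not copies of each other. Some genes of the lists are not reported here.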

Additional observations from a re-analysis of the deposited data

Results flagged for a closer look

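These members' changes against DMSO differed between 48 h and 4 h by a test of the difference itself (edgeR, adjusted over all genes). With ruxolitinib the difference on the log2 scale, 48 h minus 4 h, was 1.6858 for ALAS2, 0.8532 for ALAD, 0.5004 for FECH, 0.3028 for UROD and -0.3976 for ALAS1. With fedratinib it was 0.5429 for ALAS2, and with pacritinib -0.2181 for UROD.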

How the results depend on the processing

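Each comparison was refitted with DESeq2, RLE scaling, a replicate block, only the libraries of the same time, no filter on low counts or a filter raised to 1 CPM in 6 libraries, and without each of its libraries. No robust shrinkage and protein-coding genes only were chosen after seeing the data. No called value changed sign in any of these. The number of members called was 2 instead of 1 for itacitinib against DMSO at 48 h in each of these but RLE scaling and leaving out a library, through ALAS2. It was 2 instead of 1 for the fedratinib difference between times with DESeq2, either filter setting, the replicate block and protein-coding genes only, and 1 instead of 0 for the momelotinib difference with DESeq2 and without the filter. Against DMSO, the calls of UROS with fedratinib at 48 h (adjusted p = 0.0924), ALAS1 with momelotinib at 48 h (0.0549) and 4 h (0.0624) and SLC25A38 with pacritinib at 48 h (0.0576) were lost without the filter, and ALAS2 was gained with pacritinib at 48 h (0.017) and ruxolitinib at 4 h (0.0248). Within the same time only, FECH at 4 h was lost with ruxolitinib (0.0525) and momelotinib (0.0597), and ALAS2 with pacritinib at 48 h was gained (0.0364). DESeq2 added UROS with momelotinib at 48 h (0.0389) and CPOX with momelotinib at 4 h (0.0457).

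Without 1 library the members called were 2 to 4 for fedratinib, 0 to 2 for momelotinib, 1 to 3 for pacritinib and 0 to 1 for itacitinib at 48 h, and 0 for fedratinib, 1 to 3 for momelotinib and 3 to 4 for pacritinib at 4 h, all against DMSO. They were 0 to 2 for the fedratinib and 0 to 1 for the pacritinib difference between times, and at 4 h 0 to 1 for ruxolitinib against momelotinib and 2 to 4 against itacitinib. These fits leave 1 library in a group, assumed to vary like the other groups, and over all genes they called 2777 to 3110 genes instead of 4162 for ruxolitinib at 48 h, 389 to 1019 instead of 1299 for fedratinib, 40 to 132 instead of 402 for momelotinib, 1587 to 2250 instead of 2988 for pacritinib and 2 to 100 instead of 87 for itacitinib, for which DESeq2 called 146. At 4 h they called 798 to 900 instead of 1402 for ruxolitinib, 65 to 166 instead of 298 for fedratinib, 503 to 833 instead of 1013 for momelotinib, 3310 to 4058 instead of 4953 for pacritinib and 1 to 239 instead of 134 for itacitinib.

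Replicate numbers were not used to pair the libraries in the main fit. Over 66 pairs of groups the correlation of deviations ran from -0.346 to 0.38, with a median of 0.0261 and 18 over 0.1. This check cannot tell whether some groups shared a replicate effect. The replicate block moved the genes called for ruxolitinib at 48 h to 4306 and added ALAS2 with itacitinib at 48 h (log2 fold change 0.36, adjusted p = 0.019) and UROD in the fedratinib difference (0.21, adjusted p = 0.0211). With 2 libraries a group, the smallest change that passed differed between comparisons.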
